A study of Mus musculus with 9 samples.

Results

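The genes described here are 10 markers of neurons, covering the cytoskeleton, RNA-binding proteins and the synapse: Dcx, Tubb3, Map2, Nefl, Nefm, Elavl3, Elavl4, Snap25, Syt1 and Rbfox3. They were found in the deposited count table by their gene symbols, as 10 of 56980 gene identifiers, and all 10 passed the filter on low counts that left 17001 genes for testing. Their RNA was measured in cultured mouse oligodendrocyte progenitor cells (OPCs), which divide and can give rise to myelinating oligodendrocytes, in 9 libraries of polyadenylated RNA. All cells were Trp53 -/- and were kept in medium with 10 ng/mL PDGF-AA. The group BB-p53n EZH2i held 3 libraries of PDGF-BB-expressing cells exposed for 48 hours to 5 µM tazemetostat, an inhibitor of the histone methyltransferase EZH2. The group BB-p53n DMSO held 3 libraries of PDGF-BB-expressing cells with the vehicle DMSO at a dilution of 1 in 10000. The group p53n held 3 libraries of Trp53 -/- cells without PDGF-BB, labelled as control. Since DMSO was given only to PDGF-BB cells, PDGF-BB and vehicle cannot be told apart in the comparison of BB-p53n DMSO with p53n. The labels do not say how PDGF-BB was introduced, whether each line is 1 clone, or whether the libraries of a group are separate cultures. The p-values therefore cover the spread among the libraries alone, and that spread may be technical.

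By background, neurons build long-lived microtubules from neuron-enriched tubulin and stabilise them with associated proteins such as MAP2 and doublecortin, while neurofilament proteins set the calibre of axons. ELAVL and RBFOX proteins bind RNA and shape splicing and stability of neuronal messages, and SNAP25 and synaptotagmin drive calcium-triggered release of vesicles. Several of these genes are also known to be read in immature or dividing glial precursors, so a single one of them does not identify a neuron.

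Total counts ranged from 19471768 to 34557109 per library, and 3 counts in 1 library, used here as the floor of detection, corresponded to 0.0868 to 0.154 CPM (counts scaled to library size). Ezh2 was at 107 to 116 CPM in BB-p53n EZH2i, 170.1 to 173 CPM in BB-p53n DMSO and 110.1 to 116 CPM in p53n, and Trp53 exons still received 165 to 483 counts in each library. The mouse gene Pdgfb received 3 to 6 counts per library in BB-p53n EZH2i, 4 to 8 in BB-p53n DMSO and 0 to 1 in p53n, and whether the introduced sequence is counted there was not tested. The X-inactivation transcript Xist was at 2.82 to 17.4 CPM in BB-p53n EZH2i, 46.2 to 65.0 CPM in BB-p53n DMSO and 2777 to 3101 CPM in p53n. The Y-linked gene Ddx3y was at 5.86 to 13.2, 43.0 to 53.6 and 0.208 to 0.715 CPM in the same groups. PDGF-BB and the origin of the line thus cannot be told apart either. Mitochondrial genes took 1.34% to 1.54% of counts in BB-p53n EZH2i, 2.44% to 2.63% in BB-p53n DMSO and 4.46% to 5.76% in p53n.

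With PDGF-BB expression, 6 of the 10 genes were lower and 3 higher in BB-p53n DMSO relative to p53n, at an adjusted p under 0.05 in edgeR's quasi-likelihood test with Benjamini-Hochberg adjustment over all genes tested. Dcx and Rbfox3 fell most, to 0.487 and 0.383 of the p53n level, and Tubb3, Elavl3, Elavl4 and Snap25 fell by smaller amounts. Both neurofilament genes and Syt1 were higher, and Map2 did not pass the test. In bulk RNA, fewer cells that express a gene and less of its RNA per cell cannot be told apart. Calls were widespread in this comparison, at 69.3% of all genes tested, with 35.3% higher and 34% lower, so that 9 called genes of 10 is a share to be read against that background. The median log2 fold change of the 10 genes was -0.34, against -0.02 over all genes tested. The 2 groups did not overlap for 8 of the 10 genes, against 76.1% of all genes tested.

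With EZH2 inhibition, 6 of the 10 genes were lower and 3 higher in BB-p53n EZH2i relative to BB-p53n DMSO by the same test. Dcx, Snap25 and Map2 fell to 0.258, 0.281 and 0.315 of the vehicle level, and Elavl4, Syt1 and Elavl3 fell to between 0.462 and 0.571 of it. Rbfox3, Tubb3 and Nefl rose 4.64-fold, 2.30-fold and 2.08-fold, and Nefm did not pass the test. Of all genes tested 72.9% were called, 37.3% higher and 35.6% lower. The median log2 fold change of the 10 genes was -0.81, against 0.02 over all genes tested, and the groups did not overlap for 9 of the 10 genes, against 75.3% of all genes tested. The BB-p53n DMSO libraries serve in both comparisons, so a deviation of those libraries enters both with opposite sign.

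A second fit took out the smooth trend of each library's counts on transcript GC content and exon length, because fold changes under EZH2 inhibition followed GC content across all genes (described further on). In that fit 3 of the 10 genes were higher and 4 lower in BB-p53n DMSO relative to p53n, beside 32.1% and 40% of all genes (72% either way). In BB-p53n EZH2i against BB-p53n DMSO, 4 were higher and 5 lower, beside 28.6% and 29.2% of all genes (57.8% either way). The fit without the correction is the main one throughout, and values from the other are called corrected.

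**Figure D1:**
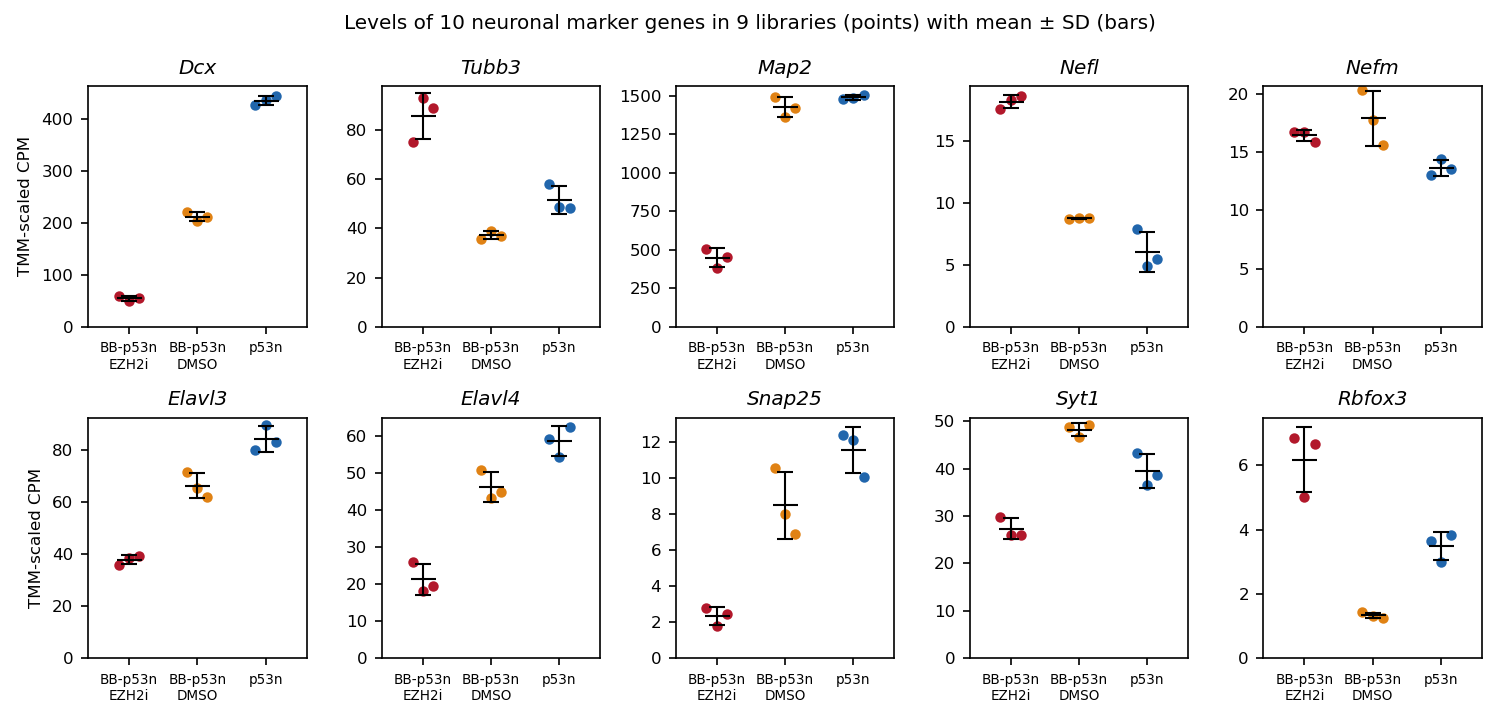
Levels of the 10 genes in TMM-scaled CPM in each of the 9 libraries, one panel per gene with its own axis from 0; points are libraries and bars the mean ± SD of 3. The 3 BB-p53n EZH2i libraries lie below both other groups for Dcx, Map2, Elavl3, Elavl4, Snap25 and Syt1 and above both for Tubb3, Nefl and Rbfox3.

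The microtubule genes moved in different directions. Dcx encodes doublecortin, a microtubule-binding protein of migrating immature neurons, and lies on chromosome X (142638838 to 142716307, GRCm39, minus strand). It was at 59.7, 48.8 and 55.7 CPM in BB-p53n EZH2i, at 221, 204 and 211 CPM in BB-p53n DMSO and at 427, 436 and 443 CPM in p53n. The 3 groups were apart from each other without overlap, in one descending order. BB-p53n DMSO was 2.05-fold below p53n (log2 fold change -1.04, SE 0.07, edgeR adjusted p = 4.95e-11), and BB-p53n EZH2i was 3.87-fold below BB-p53n DMSO (log2 fold change -1.95, SE 0.08, edgeR adjusted p = 3.21e-14). The corrected log2 fold changes were -0.84 and -0.38 in those comparisons, so the second step was smaller once the trend was removed and still called (edgeR adjusted p = 7.23e-06).

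Tubb3, the neuron-enriched class III beta-tubulin gene on chromosome 8 (124138163 to 124148754, plus strand), went the other way under the inhibitor. Its levels were 74.9, 92.7 and 88.6 CPM in BB-p53n EZH2i, 35.7, 38.8 and 36.8 CPM in BB-p53n DMSO and 58.1, 48.4 and 48.0 CPM in p53n. The BB-p53n DMSO libraries were the lowest and the BB-p53n EZH2i libraries the highest, again with no overlap. The log2 fold change was -0.48 (SE 0.09, edgeR adjusted p = 0.000106) for BB-p53n DMSO against p53n and 1.20 (SE 0.09, edgeR adjusted p = 3.54e-10) for BB-p53n EZH2i against BB-p53n DMSO. With the trend removed the rise was 0.30 (edgeR adjusted p = 0.000995). BB-p53n EZH2i was above p53n by 0.73 in the main fit but below it by 0.33 in the corrected one (log2 fold change -0.33, edgeR adjusted p = 0.000278).

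Map2, on chromosome 1 (66214432 to 66481742, plus strand), encodes the microtubule-associated protein of dendrites and had the highest TPM of the 10 genes in BB-p53n DMSO and p53n. It was at 507, 382 and 456 CPM in BB-p53n EZH2i, at 1491, 1359.6 and 1420.3 CPM in BB-p53n DMSO and at 1477, 1485 and 1506 CPM in p53n. Only the BB-p53n EZH2i libraries stood apart, since the ranges of the other groups overlapped (log2 fold change -0.06, SE 0.08, edgeR adjusted p = 0.494, called lower under upper-quartile scaling with -0.21 and adjusted p = 0.0271). Under EZH2 inhibition Map2 fell 3.17-fold (log2 fold change -1.67, SE 0.09, edgeR adjusted p = 1.36e-12), and the corrected value was -0.79 (edgeR adjusted p = 5.6e-09). The exons of Map2 share 124 bases, 0.75% of their length, with the gene model Gm10558 on the other strand.

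The windows upstream of the transcription starts of these 3 genes differ strongly in base composition, as does that of Rbfox3, and they are printed to show how unlike each other the promoters of genes in one marker list are. Each is the 250 bases before a RefSeq transcription start (GRCm38.p6), 5′ to 3′ on the gene's strand, with CpG dinucleotides in capitals. The windows are on chr8:123411303-123411552 (plus strand) for Tubb3, chr1:66175079-66175328 (plus strand) for Map2, chrX:143933125-143933374 (minus strand) for Dcx, the first of its 2 windows, and chr11:118761042-118761291 (minus strand) for Rbfox3.
Tubb3: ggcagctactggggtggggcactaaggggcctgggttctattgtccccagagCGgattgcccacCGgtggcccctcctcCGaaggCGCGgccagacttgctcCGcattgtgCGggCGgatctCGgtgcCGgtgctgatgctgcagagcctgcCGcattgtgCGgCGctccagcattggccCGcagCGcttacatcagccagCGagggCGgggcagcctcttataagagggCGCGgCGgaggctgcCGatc
Map2: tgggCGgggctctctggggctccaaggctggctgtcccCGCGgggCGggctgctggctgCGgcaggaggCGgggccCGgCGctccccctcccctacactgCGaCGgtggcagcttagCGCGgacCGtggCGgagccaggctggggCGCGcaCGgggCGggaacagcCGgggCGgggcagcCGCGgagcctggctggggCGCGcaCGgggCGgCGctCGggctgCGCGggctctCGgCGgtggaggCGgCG
Dcx: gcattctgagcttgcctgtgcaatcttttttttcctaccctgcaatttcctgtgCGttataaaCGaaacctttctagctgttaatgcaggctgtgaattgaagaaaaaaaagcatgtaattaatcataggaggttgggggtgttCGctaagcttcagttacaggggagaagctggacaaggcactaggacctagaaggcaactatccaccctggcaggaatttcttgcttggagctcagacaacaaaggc
Rbfox3: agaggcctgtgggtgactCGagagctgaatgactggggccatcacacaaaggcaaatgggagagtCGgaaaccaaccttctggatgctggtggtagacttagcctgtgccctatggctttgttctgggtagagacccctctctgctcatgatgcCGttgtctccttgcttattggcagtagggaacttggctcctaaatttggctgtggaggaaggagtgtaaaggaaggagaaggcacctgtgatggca
The Map2 window holds 34 CpG and is 81.2% G and C, and the Tubb3 window holds 21 CpG at 68.0%. The windows of Dcx and Rbfox3 hold 3 CpG each, at 44.8% and 52.8%. Over all 32817 promoter windows of the reference table the median was 6 CpG and 52.4%. Among these 4 genes, Map2 and Tubb3, with windows rich in CpG, were called in opposite directions under EZH2 inhibition. So were Dcx and Rbfox3, which have few. Windows of Elavl3 (20 CpG), Elavl4 (3 to 14) and Syt1 (5 and 8) belong to genes called lower. Which start these cells use was not tested.

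Windows were found for 7 of the 10 genes, 12 windows in all, and entries for Nefl, Nefm and Snap25 were not used here. Letters of the RE1 element, the binding site of the repressor REST, were searched on both strands by its left side, TTCAGCACC, and its right side, GGACAGCGC. Each was in 0.3% of all windows and in 0 of the 12 windows of these genes. The shorter left side CAGCACC (5.73% of all windows) was in the Tubb3 window, and the shorter right side GGACAG (18.68%) was in windows of Map2 and Syt1; these short letters lie within the longer ones. TATAAA (12.37%) was in both Dcx windows and that of Elavl3, CCAAT (33.83%) in windows of 6 of the 7 genes, and the E-box CAGATG (14.46%) in Elavl4 alone among the 7. A match describes letters in this window and no more.

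The neurofilament genes Nefl and Nefm encode the light and medium subunits of the axonal intermediate filament and lie on opposite strands of chromosome 14, with the span of Nefl inside that of Nefm. Nefl (68321312 to 68326544, plus strand) was at 17.6, 18.3 and 18.6 CPM in BB-p53n EZH2i, at 8.69, 8.76 and 8.76 CPM in BB-p53n DMSO and at 7.88, 4.87 and 5.43 CPM in p53n. The groups were in ascending order from p53n with no overlap, and the p53n libraries were the most spread. BB-p53n DMSO was 1.43-fold above p53n (log2 fold change 0.52, SE 0.15, edgeR adjusted p = 0.00375), and BB-p53n EZH2i was 2.08-fold above BB-p53n DMSO (log2 fold change 1.05, SE 0.14, edgeR adjusted p = 6.52e-07). Correction left the inhibitor value almost where it was, at 0.97, and brought the other to 0.32 (edgeR adjusted p = 0.0457).

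Nefm (68320039 to 68362295, minus strand) changed little by comparison. It was at 16.8, 16.7 and 15.9 CPM in BB-p53n EZH2i, at 20.3, 17.8 and 15.6 CPM in BB-p53n DMSO and at 13.05, 14.4 and 13.6 CPM in p53n. The BB-p53n DMSO libraries lay above all p53n libraries (log2 fold change 0.39, SE 0.11, edgeR adjusted p = 0.00323), while the BB-p53n EZH2i libraries lay inside the BB-p53n DMSO range (log2 fold change -0.12, SE 0.11, edgeR adjusted p = 0.313). With the trend removed the inhibitor comparison became a fall (log2 fold change -0.72, edgeR adjusted p = 4.97e-06). The call against p53n was lost under upper-quartile scaling (log2 fold change 0.24, edgeR adjusted p = 0.0514).

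Nefl and Nefm share 1108 exonic bases on opposite strands, which is 32.78% of the exon length of Nefl and 19.16% of that of Nefm. The counts were made without a strand option, so in that stretch the reads of one cannot be told from those of the other, and both levels are uncertain. Scaled for exon length as TPM, the ratio of Nefl to Nefm was 1.79, 1.87 and 2.00 in BB-p53n EZH2i, 0.731, 0.843 and 0.958 in BB-p53n DMSO and 1.03, 0.579 and 0.683 in p53n. The BB-p53n EZH2i libraries had more Nefl than Nefm in each case, which held for 1 of the other 6 libraries.

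Among the RNA-binding protein genes, Elavl3 and Elavl4 fell and Rbfox3 rose under EZH2 inhibition. Elavl3 (chromosome 9, 21926301 to 21963319, minus strand) and Elavl4 (chromosome 4, 110060919 to 110209106, minus strand) encode HuC and HuD, neuronal proteins that stabilise messages with AU-rich elements. Elavl3 was at 36.0, 38.7 and 39.1 CPM in BB-p53n EZH2i, at 71.5, 65.4 and 62.0 CPM in BB-p53n DMSO and at 80.1, 89.8 and 83.0 CPM in p53n. All 3 groups were apart, with log2 fold changes of -0.35 (SE 0.08, edgeR adjusted p = 0.000407) for BB-p53n DMSO against p53n and -0.81 (SE 0.08, edgeR adjusted p = 1.13e-08) for BB-p53n EZH2i against BB-p53n DMSO. Unlike the other genes that fell with the inhibitor, Elavl3 has a transcript of rather high GC content, and its corrected fall was larger, at -1.18 (edgeR adjusted p = 1.53e-11). Its exons share 256 bases with the gene model Gm49318, which had 0 counts.

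Elavl4 was at 26.1, 18.3 and 19.6 CPM in BB-p53n EZH2i, at 50.9, 43.2 and 45.0 CPM in BB-p53n DMSO and at 59.3, 54.3 and 62.4 CPM in p53n. The groups followed the same descending order as Elavl3, with no overlap. The fall under the inhibitor was 2.16-fold (log2 fold change -1.11, SE 0.11, edgeR adjusted p = 4.94e-08) and turned into a small rise in the corrected fit (log2 fold change 0.21, edgeR adjusted p = 0.0172). For BB-p53n DMSO against p53n the log2 fold change was -0.34 (SE 0.11, edgeR adjusted p = 0.00827), with a corrected value of -0.05 (edgeR adjusted p = 0.507). That call was also lost without p53n replicate 1 (-0.25, edgeR adjusted p = 0.0945), p53n replicate 3 (-0.21, edgeR adjusted p = 0.152) or BB-p53n DMSO replicate 2 (-0.28, edgeR adjusted p = 0.0579). The direction of Elavl4 thus depended on the correction under EZH2 inhibition. Its call with PDGF-BB did not hold when some libraries were left out, while the direction stayed the same.

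Rbfox3, on chromosome 11 (118380588 to 118802423, minus strand), encodes the splicing regulator NeuN, a marker of mature neurons. It received 173, 94 and 140 counts in BB-p53n EZH2i, 48, 44 and 41 in BB-p53n DMSO and 105, 72 and 91 in p53n. That is 6.86, 5.01 and 6.66 CPM in BB-p53n EZH2i, 1.43, 1.30 and 1.26 CPM in BB-p53n DMSO and 3.64, 3.00 and 3.83 CPM in p53n. The BB-p53n DMSO libraries were the lowest and the BB-p53n EZH2i libraries the highest, without overlap, at levels that are low throughout. BB-p53n DMSO was 2.61-fold below p53n (log2 fold change -1.39, SE 0.20, edgeR adjusted p = 4.44e-06), and BB-p53n EZH2i was 4.64-fold above BB-p53n DMSO (log2 fold change 2.21, SE 0.20, edgeR adjusted p = 3.26e-09). The corrected values were -1.51 and 1.61. Against p53n, BB-p53n EZH2i was higher by 0.83 (edgeR adjusted p = 0.000286), and by 0.10 with the trend removed (edgeR adjusted p = 0.63).

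The synaptic genes Snap25 and Syt1 both fell under EZH2 inhibition and differed in direction with PDGF-BB. Snap25 (chromosome 2, 136555373 to 136624348, plus strand) encodes a SNARE protein of the presynaptic membrane. It was at 2.77, 1.81 and 2.47 CPM in BB-p53n EZH2i, at 10.6, 8.02 and 6.91 CPM in BB-p53n DMSO and at 12.4, 12.2 and 10.1 CPM in p53n. The BB-p53n EZH2i libraries, with 34 to 70 counts each, were clearly lowest, and the ranges of BB-p53n DMSO and p53n overlapped. The fall with the inhibitor was 3.56-fold (log2 fold change -1.83, SE 0.19, edgeR adjusted p = 3.09e-08) and shrank to -0.42 with the trend removed (edgeR adjusted p = 0.0484).

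For BB-p53n DMSO against p53n, the log2 fold change of Snap25 was -0.44 (SE 0.16, edgeR adjusted p = 0.016). This call was lost in the corrected fit (-0.16, edgeR adjusted p = 0.298). It was lost too without p53n replicate 1 (-0.30, edgeR adjusted p = 0.157), p53n replicate 2 (-0.40, edgeR adjusted p = 0.0662), BB-p53n DMSO replicate 2 (-0.39, edgeR adjusted p = 0.0705) or BB-p53n DMSO replicate 3 (-0.30, edgeR adjusted p = 0.13). The call of Snap25 with PDGF-BB thus did not hold when some libraries were left out, while its direction stayed the same.

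Syt1 (chromosome 10, 108333511 to 108846843, minus strand) encodes synaptotagmin-1, the calcium sensor of synaptic vesicles. Its levels were 29.8, 26.1 and 26.0 CPM in BB-p53n EZH2i, 48.8, 46.6 and 49.1 CPM in BB-p53n DMSO and 43.3, 36.4 and 38.6 CPM in p53n. BB-p53n DMSO was above p53n by 0.29 on the log2 scale (SE 0.09, edgeR adjusted p = 0.00511) with no overlap, a call lost under upper-quartile scaling (0.14, edgeR adjusted p = 0.145). BB-p53n EZH2i was 1.76-fold below BB-p53n DMSO (log2 fold change -0.82, SE 0.09, edgeR adjusted p = 4.45e-08), and the corrected value missed the threshold (-0.18, edgeR adjusted p = 0.0536).

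**Figure D2:**
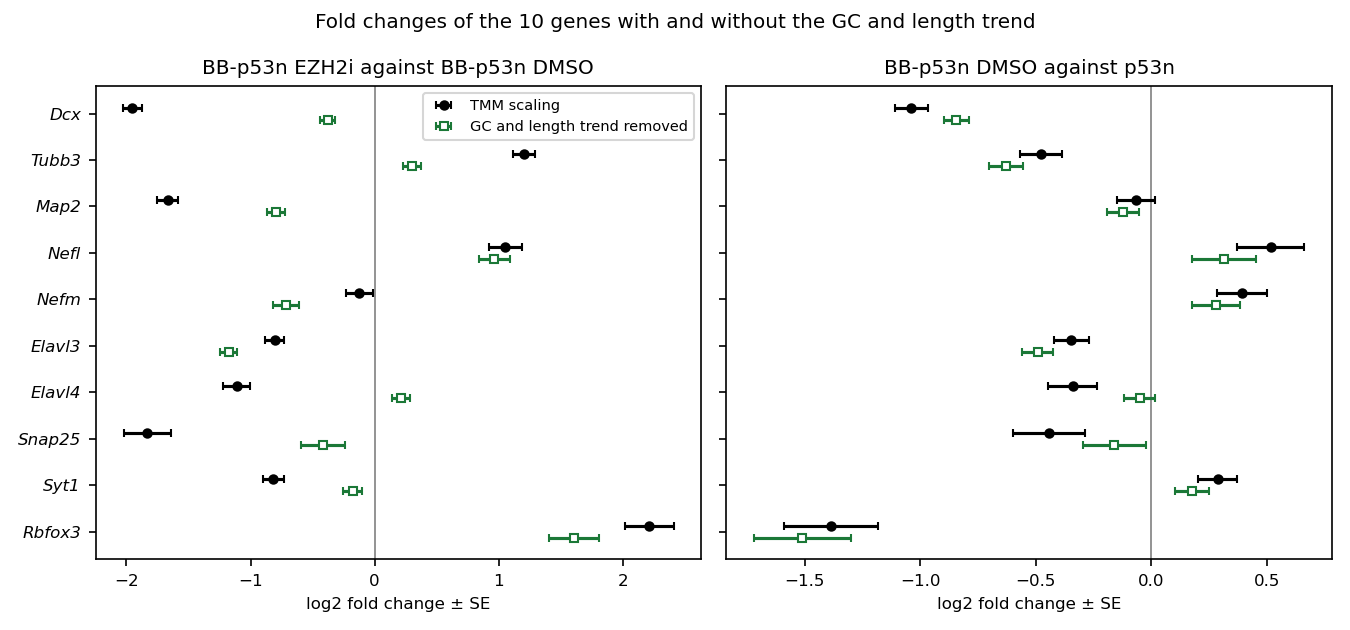
Log2 fold changes ± SE of the 10 genes in the fit on counts and in the fit with the GC and length trend removed, one panel per comparison. Under EZH2 inhibition the fall of Dcx is -1.95 before and -0.38 after the correction, that of Elavl4 is -1.11 before and 0.21 after it, and Nefl stays near 1 (1.05 and 0.97).

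BB-p53n EZH2i was also set against p53n, a comparison that the series does not name and that shares libraries with both others. Of the 10 genes 4 were higher and 6 lower, beside 40.3% higher and 41.7% lower among all genes tested (82% in all), and all 10 were without overlap between the groups, against 82.2% of all genes. Dcx was 7.94-fold lower (log2 fold change -2.99), Snap25 4.85-fold lower and Map2 3.32-fold lower, and Nefl was 2.97-fold higher. The smallest call was Nefm, at 0.27 (edgeR adjusted p = 0.0323), which was lost without p53n replicate 1 (edgeR adjusted p = 0.0957) or p53n replicate 3 (edgeR adjusted p = 0.0596). It was lost as well with DESeq2 (adjusted p = 0.102), with upper-quartile scaling (edgeR adjusted p = 0.146) and with no filter (edgeR adjusted p = 0.0924). With the trend removed 2 genes were higher and 6 lower, beside 35.5% and 43.2% of all genes (78.7% either way). In that fit Tubb3 (-0.33) and Nefm (-0.43) were called lower and Elavl4 (0.16) higher, each against its direction in the main fit. Syt1, called lower in the main fit, had a corrected log2 fold change of 0 (edgeR adjusted p = 0.983).

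The order of the 3 groups was given for each gene from the main fit. Dcx, Elavl3, Elavl4 and Snap25 were lowest in BB-p53n EZH2i and highest in p53n, with every neighbouring step called. Map2 was lowest in BB-p53n EZH2i, and Syt1 was lowest there and highest in BB-p53n DMSO. Tubb3 and Rbfox3 were lowest in BB-p53n DMSO and highest in BB-p53n EZH2i, while Nefl and Nefm were lowest in p53n. The neighbours that did not differ beyond their spread were BB-p53n DMSO and p53n for Map2, and BB-p53n EZH2i and BB-p53n DMSO for Nefm.

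Length-scaled levels showed which of the genes carried most of the message. In BB-p53n EZH2i, Tubb3 averaged 109.6 ± 9.24 TPM and Map2 65.6 ± 10.8 TPM (SD, n = 3). In BB-p53n DMSO, Map2 averaged 246 ± 7.85 TPM, Tubb3 56.5 ± 3.97 TPM and Dcx 47.7 ± 1.33 TPM, and in p53n Map2 averaged 278 ± 9.40 TPM, Dcx 105.8 ± 4.51 TPM and Tubb3 84.6 ± 7.64 TPM. Tubb3 thus stood first in BB-p53n EZH2i and Map2 first in the other groups. Of the summed TPM of the 10 genes, Tubb3 made up 45.8% in BB-p53n EZH2i, 12.9% in BB-p53n DMSO and 14.7% in p53n, and Dcx 4.35%, 10.9% and 18.4% in those groups.

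The lower end of the list was held by Snap25 and Rbfox3. Snap25 averaged 0.834 ± 0.192 TPM in BB-p53n EZH2i, 3.54 ± 0.645 TPM in BB-p53n DMSO and 5.22 ± 0.467 TPM in p53n. Rbfox3 averaged 2.55 ± 0.453 TPM in BB-p53n EZH2i, 0.651 ± 0.0187 TPM in BB-p53n DMSO and 1.84 ± 0.248 TPM in p53n, so Snap25 was last in BB-p53n EZH2i and Rbfox3 in the other groups. The summed CPM of the 10 genes was 649 to 778 in BB-p53n EZH2i, 1793 to 1960.3 in BB-p53n DMSO and 2181 to 2214 in p53n, and Map2 made up most of it in each group.

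**Figure D3:**
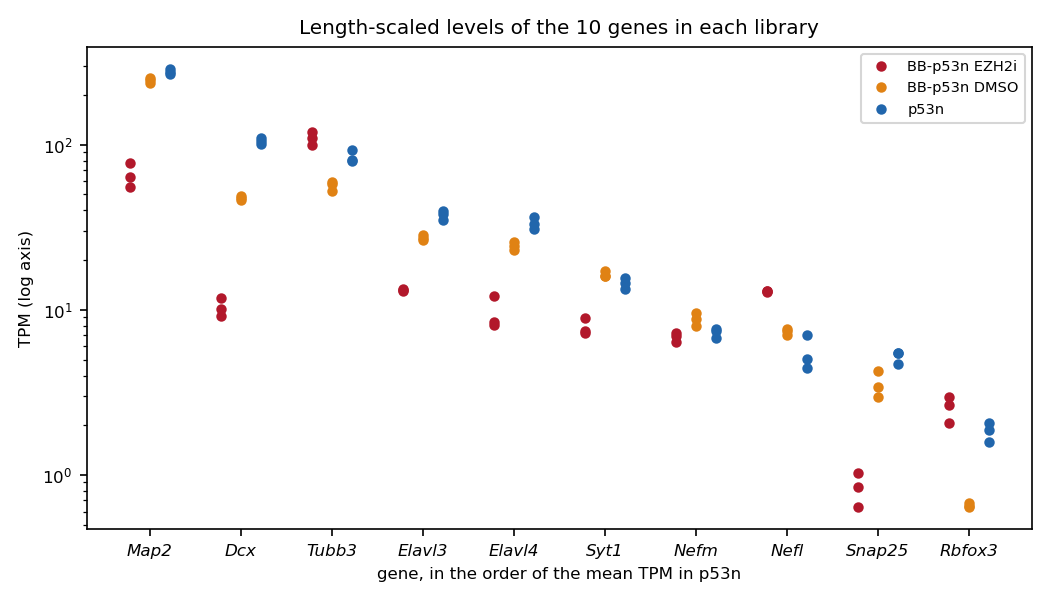
Length-scaled level (TPM, log axis) of each gene in each library, with genes in the order of their mean in p53n. Tubb3 lies at the top for BB-p53n EZH2i, where it averaged 109.6 TPM, and Map2 at the top for the other groups, at 246 TPM in BB-p53n DMSO and 278 TPM in p53n.

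Under EZH2 inhibition, fold changes ran with the base composition of transcripts across all genes, and some of the 10 genes followed that trend while others departed from it. Over 12786 genes with an average log2 CPM above 1, the Spearman correlation between log2 fold change and GC content was 0.73 in BB-p53n EZH2i against BB-p53n DMSO, a description across genes that share the same libraries. It was 0.14 for BB-p53n DMSO against p53n. In the inhibitor comparison the lowest GC decile had a median log2 fold change of -1.41 and the highest decile 0.83.

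Snap25 (38.69% GC), Elavl4 (38.88%) and Dcx (40.56%) were among the tested genes lowest in GC content, at percentiles 3.9, 4.3 and 8.6. The fitted trend at their GC content and length was -1.42, -1.32 and -1.57 on the log2 scale, beside measured log2 fold changes of -1.83, -1.11 and -1.95. For these 3 genes most or all of the measured size was thus shared with other genes of like composition. Map2 (47.84% GC, exon length 16456 bases) and Syt1 (45.79%) had fitted trends of -0.87 and -0.64.

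At the other end, Rbfox3 (58.57% GC), Tubb3 (57.87%) and Nefm (57.77%) were at percentiles 92.5, 90.3 and 90.1, with fitted trends of 0.60, 0.90 and 0.59. Nefm and Elavl3 (54.13%, fitted 0.37) lay far below the trend, at -0.12 and -0.81. Nefl (48.85%) had a fitted trend of 0.09 and a measured value of 1.05, and Rbfox3 lay above its trend at 2.21. Some genes thus lay near the trend, with corrected values between -0.42 and 0.30 (Dcx, Elavl4, Snap25, Syt1 and Tubb3), others below it (Map2, Elavl3 and Nefm) and others above it (Nefl and Rbfox3). Whether the trend arose in the cells or in the making of the libraries was not tested.

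**Figure D4:**
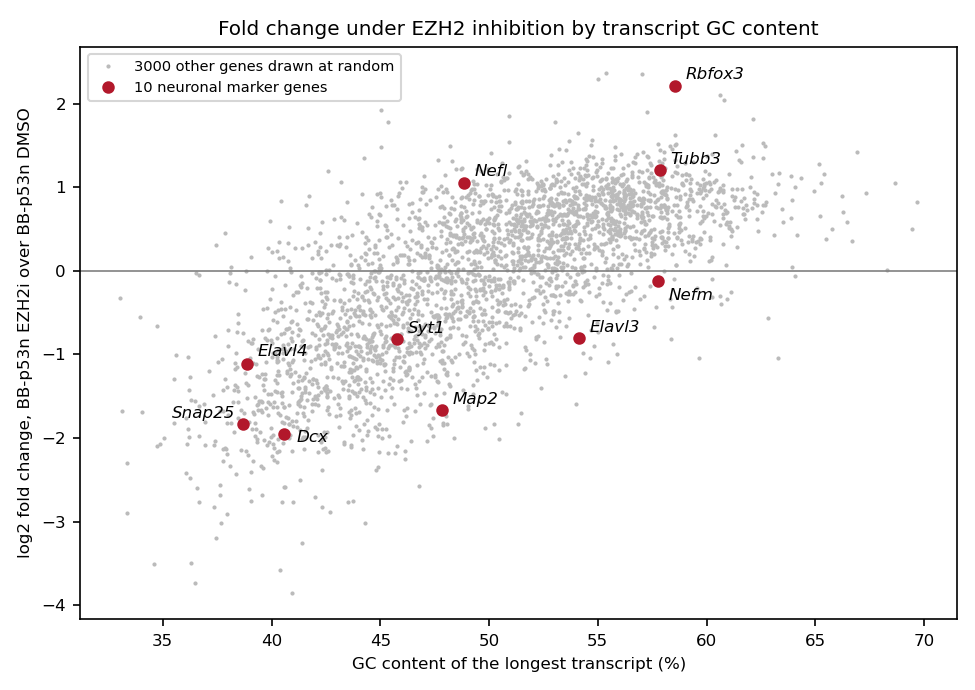
Log2 fold change of BB-p53n EZH2i over BB-p53n DMSO against the GC content of the longest transcript (%), for the 10 genes (large points) and 3000 other genes drawn at random from those with an average log2 CPM above 1. Dcx, Elavl4 and Snap25 lie within the cloud at low GC. Elavl3 and Nefm lie in its lower part at higher GC, Nefl in its upper part, and Rbfox3 at its upper edge.

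The neighbourhoods of the genes on their chromosomes were read next, as median log2 fold changes of tested genes starting within 2 Mb. Around Rbfox3, 75 neighbours had a median of 0.71 for BB-p53n DMSO against p53n, with 49 called higher and 10 lower, while Rbfox3 itself was at -1.39. All 1301 tested genes of chromosome 11 had a median of 0.38 there, against -0.05 elsewhere. The fall of Rbfox3 was thus opposite to its surroundings. Under EZH2 inhibition the same neighbours had a median of 0.56 (-0.02 corrected), with 50 called higher and 11 lower, in the direction of the rise of Rbfox3. For BB-p53n DMSO against p53n, chromosome 14, home of Nefl and Nefm, had a median of -0.49, against 0.00 elsewhere. The 27 neighbours of each had a median of 0.13 in the same comparison.

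Around Dcx, 15 neighbours had a median of 0.09 for BB-p53n DMSO against p53n, and 575 genes of chromosome X a median of -0.09 against -0.01 elsewhere, while Dcx was at -1.04. Under EZH2 inhibition the neighbours of Dcx had a median of -0.74, or 0.08 corrected. The 28 neighbours of Map2 had a median of -0.86 with the inhibitor, or -0.13 corrected, beside -1.67 and -0.79 for Map2 itself. The 67 neighbours of Elavl3 had a median of 0.59, or 0.11 corrected, opposite to the fall of Elavl3 at -0.81. Medians with the inhibitor were 0.47 around Tubb3, -0.88 around Snap25, -1.25 around Syt1 and -0.06 around Elavl4, in the direction of each gene. Corrected, they were -0.04, -0.34, -0.66 and -0.18. Around both Nefl and Nefm the median was -0.15, against the rise of Nefl.

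The single genes whose profile over the 9 libraries lay nearest to the markers other than Nefl were found by Euclidean distance of centred log2 CPM among 11385 candidates. They were Zeb2 for Dcx (distance 0.21), Slc27a4 for Tubb3 (0.196), Gnai3 for Map2 (0.129) and Basp1 for Nefm (0.277). For the others they were Mfap1b for Elavl3 (0.183), Rprd1a for Elavl4 (0.162), Tut4 for Snap25 (0.386), Ddx52 for Syt1 (0.163) and Camkv for Rbfox3 (0.28). Map2 had the closest and Snap25 the most distant of these 9. The 10 genes themselves were not candidates.

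Other neuronal genes were described by lists taken from textbook roles. Calls in these lists, and in those of other cell types below, stand beside the shares over all genes tested. In BB-p53n DMSO against p53n 69.3% of all genes were called (35.3% higher, 34% lower). In BB-p53n EZH2i against BB-p53n DMSO 72.9% were called (37.3% higher, 35.6% lower), or 57.8% in the corrected fit (28.6% higher, 29.2% lower). Of 26 further cytoskeleton genes 25 were tested, and 9 were higher and 10 lower in BB-p53n DMSO relative to p53n, with a median log2 fold change of -0.03 beside -0.02 over all genes. Map1b, a microtubule-associated protein gene of growing axons, was at 315 ± 7.71 CPM in BB-p53n DMSO and 101 ± 5.48 CPM in p53n (log2 fold change 1.65). Dpysl3, a collapsin response mediator gene, was lower at -1.03, and Stmn3, a stathmin family gene, at -0.83. In BB-p53n EZH2i against BB-p53n DMSO 13 of the 25 were higher and 9 lower, with a median of 0.38 beside 0.02 over all genes. Map1b was at 94.0 ± 4.14 CPM in BB-p53n EZH2i, lower by a log2 fold change of -1.74, or -0.86 corrected. The doublecortin relative Dclk1 (-1.18, or -0.17 corrected) and the kinesin gene Kif5c (-1.28, or -0.92 corrected) fell as well. With the trend removed the inhibitor counts were 4 higher and 12 lower, with a median of -0.11, so the balance of this list turned over.

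All 30 further genes of synaptic vesicles and release were tested. Of them 66.7% were called with PDGF-BB and 80% with the inhibitor, beside 69.3% and 72.9% of all genes. In BB-p53n DMSO 7 were higher and 13 lower relative to p53n (median -0.13), among them Rab3c, a vesicle GTPase gene, at 7.69 ± 0.502 CPM in BB-p53n DMSO and 39.8 ± 4.00 CPM in p53n. Bsn, which encodes the active zone scaffold bassoon, fell by 1.68 and Syn2, a synapsin gene, fell by 1.41 on the log2 scale. With EZH2 inhibition 15 were higher and 9 lower (median 0.32), and 9 were higher and 11 lower in the corrected fit (median 0.03). Rph3a, a Rab3 effector gene, was at 34.0 ± 0.789 CPM in BB-p53n EZH2i and 9.40 ± 0.874 CPM in BB-p53n DMSO, higher by 1.85 on the log2 scale (1.24 corrected). Pclo, the piccolo gene, and Syt4, a relative of Syt1, fell by 1.86 and 2.08 on the log2 scale, with corrected values of -0.55 and -1.11. The synaptic list therefore held genes that rose beside Snap25 and Syt1, which fell.

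Of 13 further neuronal RNA-binding protein genes 12 were tested, with 1 higher and 6 lower in BB-p53n DMSO relative to p53n (median -0.35). Celf3, a splicing factor gene, was at 7.97 ± 0.805 CPM in BB-p53n DMSO and 45.8 ± 3.34 CPM in p53n (log2 fold change -2.52), and Rbfox1, the relative of Rbfox3, was the 1 that rose (2.46). Under EZH2 inhibition 4 were higher and 7 lower (median -0.49), and 4 higher and 4 lower after correction (median 0.13). The shares called in the 2 comparisons were 58.3% and 91.7% of those tested, beside 69.3% and 72.9% of all genes. Rbfox1 fell by 1.09 (-0.60 corrected) where Rbfox3 rose by 2.21. Celf3 rose by 0.71 (0.15 corrected, edgeR adjusted p = 0.244), and Nova1, a splicing regulator gene, fell by 0.96 in the main fit and was higher by 0.64 in the corrected one.

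**Figure D5:**
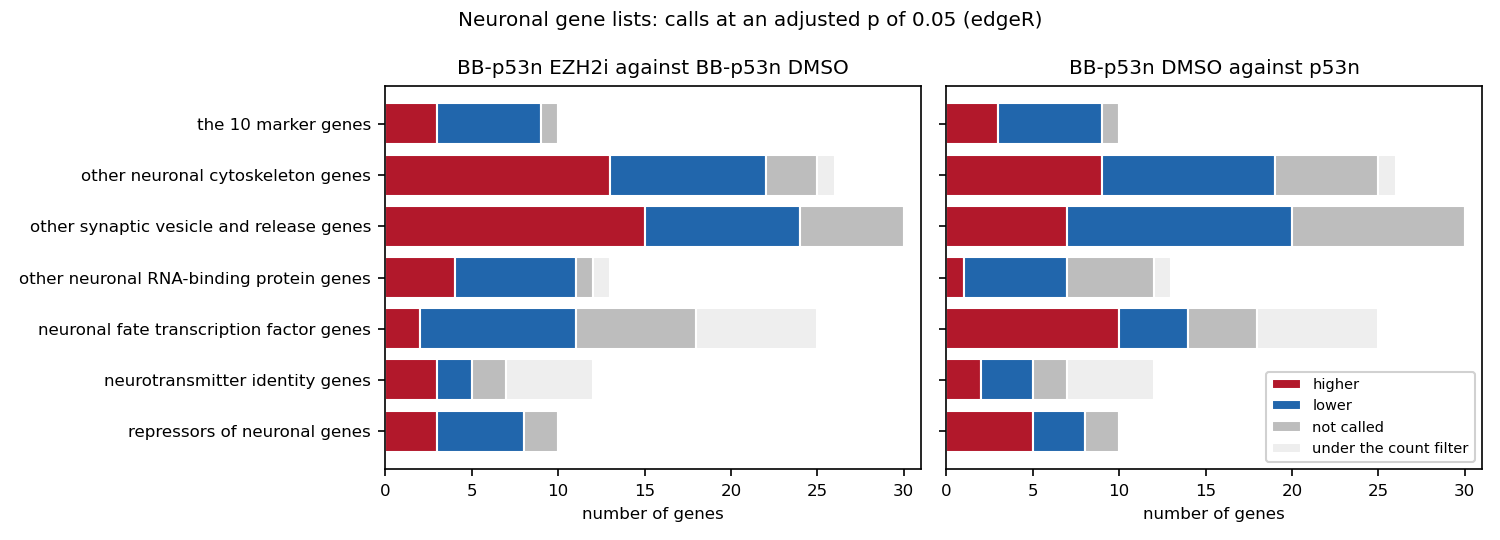
Number of genes called higher, called lower, not called (edgeR adjusted p under 0.05) or left out by the filter on low counts in the list of 10 and in the other neuronal lists, one panel per comparison. In both panels the 10 genes hold 3 called higher and 6 called lower, and under EZH2 inhibition the further cytoskeleton genes hold 13 higher and 9 lower.

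Of 25 transcription factor genes of neuronal fate 18 were tested, with 10 higher and 4 lower in BB-p53n DMSO relative to p53n (median 0.72). In BB-p53n EZH2i relative to BB-p53n DMSO 2 were higher and 9 lower (median -0.51, corrected -0.48). These calls were 77.8% and 61.1% of those tested, beside 69.3% and 72.9% of all genes. Sox11, a factor of immature neurons, was at 135 ± 13.6 CPM in BB-p53n EZH2i, 292 ± 27.9 CPM in BB-p53n DMSO and 132 ± 8.72 CPM in p53n. Sox4, its relative, was at 229.9 ± 6.20, 369 ± 24.1 and 1067 ± 32.3 CPM in these groups. Ebf1 rose by 1.81 with PDGF-BB, and Prox1 (-1.29, or -0.59 corrected), Pou3f2 (-1.67, or -1.02 corrected) and Sox11 (-1.12, or -0.57 corrected) fell with the inhibitor. The summed level of the 25 was 697 to 758 CPM in BB-p53n EZH2i, 1143 to 1263 CPM in BB-p53n DMSO and 1597 to 1672 CPM in p53n. The lower sum in BB-p53n DMSO than in p53n came from Sox4, while more of the tested genes were called higher than lower.

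The list drawn up as repressors of neuronal genes was measured in full, 10 of 10. It also holds Elavl1, and whether each member has that role was not tested. With PDGF-BB 5 were higher and 3 lower (median 0.39). With EZH2 inhibition 3 were higher and 5 lower (median -0.10), or 3 and 3 after correction (median -0.08). The share called in the main fit was 80% in each comparison, beside 69.3% and 72.9% of all genes. Ptbp1, the splicing repressor of non-neuronal cells, was at 408 ± 22.9 CPM in BB-p53n EZH2i, 253 ± 5.81 CPM in BB-p53n DMSO and 91.4 ± 6.52 CPM in p53n. Elavl1, the broadly expressed relative of Elavl3 and Elavl4, was at 196 ± 21.8, 247 ± 8.29 and 99.5 ± 2.89 CPM in these groups. Rcor2, a corepressor gene, fell by 0.94 with PDGF-BB. With the inhibitor Rcor1, a corepressor partner of REST, fell by 1.35 (-1.19 corrected), the histone methyltransferase gene Ehmt2 rose by 0.95 (0.30 corrected), and the deacetylase gene Hdac2 fell by 0.97 (-0.09 corrected, edgeR adjusted p = 0.229). Rest itself, named after its values were seen, was at 23.3, 15.5 and 22.2 CPM in BB-p53n EZH2i, at 59.9, 51.8 and 50.0 CPM in BB-p53n DMSO and at 29.4, 36.5 and 31.8 CPM in p53n. Its log2 fold change was 0.73 for BB-p53n DMSO against p53n (edgeR adjusted p = 9.78e-05) and -1.40 for BB-p53n EZH2i against BB-p53n DMSO (edgeR adjusted p = 1.08e-07). Both are from the main fit, and no corrected value of Rest is given here, so its share in the GC trend is left unstated.

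Genes that give a neuron its transmitter were low in all groups. The 12 genes summed to 5.99 to 7.89 CPM in BB-p53n EZH2i, 4.50 to 5.49 CPM in BB-p53n DMSO and 9.79 to 10.6 CPM in p53n, and 7 of them were tested. With PDGF-BB 2 were higher and 3 lower, and with the inhibitor 3 were higher and 2 lower, or 1 and 0 after correction. In the main fit that was 71.4% of those tested in each comparison, beside 69.3% and 72.9% of all genes. The glutamate transporter gene Slc17a8 had 0, 0 and 0 counts in BB-p53n EZH2i, 1, 5 and 3 in BB-p53n DMSO and 42, 60 and 48 in p53n. Gad2, a GABA-synthesis gene, had 0, 0 and 0 counts in BB-p53n EZH2i, 1, 1 and 0 in BB-p53n DMSO and 31, 36 and 27 in p53n. The vesicular GABA transporter gene Slc32a1 had 69, 44 and 46 counts in BB-p53n EZH2i, 35, 26 and 30 in BB-p53n DMSO and 3, 3 and 5 in p53n, and the transporter gene Slc17a7 had 21, 18 and 21 counts in BB-p53n EZH2i, 5, 2 and 3 in BB-p53n DMSO and 3, 6 and 10 in p53n. Chat, which makes acetylcholine, had 0 counts in each library.

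Markers of other cell types moved as well. The 12 OPC markers summed to 5034 to 5337 CPM in BB-p53n EZH2i, 6947 to 6979 CPM in BB-p53n DMSO and 8997 to 9526 CPM in p53n, and none was at 0 in any group. Sox10, a defining factor of the oligodendrocyte lineage, was at 459 ± 9.60 CPM in BB-p53n EZH2i and 299 ± 16.4 CPM in BB-p53n DMSO, against 2.21 ± 0.293 CPM in p53n, and was thus low in p53n. Other OPC markers differed the other way, such as Gpr17, a receptor of committed precursors, at 57.8 ± 6.54 CPM in BB-p53n EZH2i, 132 ± 10.9 CPM in BB-p53n DMSO and 1904 ± 86.3 CPM in p53n. Nkx2-2, a transcription factor gene of the lineage, was at 61.3 ± 1.20, 46.7 ± 1.53 and 112 ± 1.87 CPM in these groups. In all, 4 OPC markers were higher and 7 lower in BB-p53n DMSO relative to p53n (median log2 fold change -0.40 beside -0.02 over all genes). With the inhibitor 5 were higher and 5 lower (median 0.02, as over all genes), or 1 higher and 10 lower after correction (median -0.47). The share of OPC markers called was 91.7% with PDGF-BB and 83.3% with the inhibitor, beside 69.3% and 72.9% of all genes. The lower sum under the inhibitor came in large part from Ptprz1, a receptor phosphatase gene, at 625 ± 27.8 CPM in BB-p53n EZH2i and 2308 ± 48.1 CPM in BB-p53n DMSO, a log2 fold change of -1.88 (-0.71 corrected). Vcan, the versican gene, fell by 1.97 (-0.68 corrected). The 8 astrocyte markers summed to 1191 to 1321 CPM in BB-p53n EZH2i, 1128 to 1154 CPM in BB-p53n DMSO and 1684 to 1852 CPM in p53n, with all 8 lower in BB-p53n DMSO relative to p53n and Aqp4 at 0 in BB-p53n EZH2i. The gap junction gene Gja1 was at 0.1004, 0.182 and 8.32 CPM on average in these groups, Aldh1l1 at 0.361, 0.170 and 4.44 CPM and S100b at 88.5, 73.9 and 160.5 CPM. Calls took 100% of the 8 astrocyte markers with PDGF-BB and 62.5% with the inhibitor, beside 69.3% and 72.9% of all genes. With the inhibitor 2 astrocyte markers were higher and 3 lower, or 1 and 1 after correction. Among them Aldoc was higher by 0.42 (-0.03 corrected), and the glutamate transporter genes Slc1a3 (-0.47, or 0.19 corrected) and Slc1a2 (-1.03, or -0.03 corrected) were lower. The 7 microglia markers summed to 1.90 to 2.61, 2.04 to 2.84 and 1.42 to 2.27 CPM in the same groups, with C1qa at 0 in all of them, and the 8 endothelial and mural markers to 10.7 to 13.05, 12.99 to 16.5 and 10.6 to 14.7 CPM. The part of OPC and astrocyte markers in the changes of the 10 genes was not tested.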

How the data were processed

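The authors deposited unnormalized counts of fragments for each gene. The file headers say they were made with featureCounts 1.6.3 over exons, with both ends mapped, a mapping quality of at least 20 and no strand option, on Ensembl release 108 (GRCm39). The submitters' processing notes also name Trimmomatic and Subread; how they were run is not given in the sources used here. Gene symbols came from a name table that covered 91.4% of the identifiers, and transcript GC content from GENCODE (GRCm38), matched by identifier, for 97.9% of the tested genes.

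In edgeR 4.0.16 (R 4.3.3), low genes were removed by filterByExpr, libraries scaled by TMM, and 1 quasi-likelihood model fitted to the 9 libraries by group alone, with 2-sided tests at an adjusted p of 0.05. TPM was computed from counts and exon lengths. The corrected fit used splines with 5 degrees of freedom on GC content and length as an offset for each library. Alternatives were DESeq2 1.42.0, upper-quartile scaling, no filter, fits of only the groups compared, a replicate block, and each library left out. Libraries of 1 group differed by more than sampling noise, so none was counted as a repeat. The floors cover counting error only, while the SE and SD values cover the spread among the libraries. The scripts were tested on simulated data.

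All 10 genes are named. From each other list up to 3 tested genes with the smallest adjusted p in each comparison the series names were taken, plus the nearest gene of each of the 10; that of Nefl is not reported here. Not all of these are printed for microglia, endothelial and mural markers, and markers at 0 were named from their list. The 10 genes and the lists were chosen with earlier results of these data known.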

Additional observations from a re-analysis of the deposited data

How the results depend on the processing

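Of 390 log2 fold changes of the 10 genes recomputed under alternatives, 353 kept their direction and side of the threshold, 23 lost their call, 3 gained one and 11 changed sign. The genes called higher in BB-p53n DMSO against p53n numbered 1 rather than 3 under upper-quartile scaling, which moved the median of all genes to -0.16. In BB-p53n EZH2i against p53n, 2 were called higher with the GC and length trend removed, and 1 with the replicate block as well, rather than 4. Both of these fits changed the sign of Elavl4 under EZH2 inhibition (0.21 in each) and, against p53n, of Tubb3 (-0.33 in each), Nefm (-0.43 and -0.44) and Elavl4 (0.16 in each). Map2 in BB-p53n DMSO against p53n, not called, was 0.00 without the filter and between -0.08 and 0.03 with 1 library left out (0.01 without p53n replicate 1, 0.03 without p53n replicate 3). The cause of these shifts was not tested.

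With 1 library left out, 3 of the 10 genes were higher and 4 to 6 lower in BB-p53n DMSO relative to p53n, 3 and 6 in BB-p53n EZH2i relative to BB-p53n DMSO, and 3 to 4 and 6 in BB-p53n EZH2i against p53n. All genes called higher and lower numbered 5724 to 6342 and 4862 to 5499, 5983 to 6418 and 5751 to 6180, and 6753 to 6952 and 6925 to 7379 in these comparisons. Deviations of libraries with the same number had correlations of 0.353, 0.28 and -0.008 between BB-p53n EZH2i and BB-p53n DMSO. Crossing replicates 1 and 2 of those groups gave -0.316 and -0.319. Between BB-p53n DMSO and p53n the same-number values were -0.126, -0.002 and -0.028. These values do not settle whether the numbers pair the libraries. A replicate block left 3 higher and 6 lower in BB-p53n DMSO against p53n as well as in BB-p53n EZH2i against BB-p53n DMSO; it left 4 and 6 against p53n. Counts of 34 to 48 per library limit the precision for the lowest values of Snap25 and Rbfox3.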

Other observations

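Ratios between pairs of the 10 genes, in TPM, are values that belong to no comparison above. Tubb3 over Dcx was 8.49, 12.9 and 10.8 in BB-p53n EZH2i, 1.09, 1.29 and 1.18 in BB-p53n DMSO and 0.921, 0.752 and 0.733 in p53n, so the groups did not overlap. Elavl4 over Elavl3 was 0.928, 0.603 and 0.643 in BB-p53n EZH2i, 0.911, 0.845 and 0.927 in BB-p53n DMSO and 0.946, 0.774 and 0.963 in p53n, with overlap between all groups. The ratio of the 2 ELAVL genes therefore did not separate the groups, while each gene fell in the main fit. With the trend removed Elavl4 was higher by 0.21 under EZH2 inhibition. Elavl4 and Elavl3 also differ in GC content, at 38.88% and 54.13%, and the part of that in their ratio was not tested. Tubb3 and Dcx differ in GC content, at 57.87% and 40.56%, and the part of that difference in their ratio was not tested.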
